A study of Mus musculus with 16 samples.

Results

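The genes described here encode the subunits of the mitochondrial oxidative phosphorylation machinery that are carried in the nucleus. They were chosen by symbol, as every gene row whose name follows the series for NADH dehydrogenase (Nduf), succinate dehydrogenase (Sdh), the cytochrome bc1 complex (Uqcr and Cyc1), cytochrome c oxidase (Cox4 to Cox8) or ATP synthase (Atp5), with at least 100 counts in all 16 libraries. Of 39179 gene rows, 84 carried such a name and 77 met the count minimum. Of the 77 genes, 75 encode subunits, 35 of complex I, 4 of complex II, 9 of complex III, 12 of complex IV and 15 of complex V. The other 2, Atp5s and Atp5sl, share the name but are not subunits, and are counted among the 77 in the tests. Ndufa4 was placed in complex IV, with which its protein is now known to assemble. The symbol Ndufab1, of a further complex I subunit, does not follow the pattern and is not a member.

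Oxidative phosphorylation takes electrons from NADH through complex I and from succinate through complex II to ubiquinone, on through complex III and cytochrome c to complex IV, which reduces oxygen. Protons pumped on the way drive complex V, the ATP synthase. Most subunits are encoded in the nucleus, while a small catalytic set is encoded by mitochondrial DNA, so that every complex except complex II is built from both genomes. Neurons depend on this pathway for most of their ATP, which pays for ion pumping and synaptic transmission.

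Total RNA was sequenced from neurons isolated from the cortex or hippocampus of adult TERT-AD mice, strain B6.129S6.SvEvTac, that had been given tamoxifen or vehicle. The series title and design describe the treated neurons as Tert-activated, Tert being the catalytic subunit of telomerase. Each region had libraries from vehicle controls and from tamoxifen-treated mice, which made 4 groups of 4 libraries, all of the same strain and TERT-AD label. The sources used here give neither the alleles behind the TERT-AD name, the promoter through which tamoxifen acts, the dose, nor the isolation method.

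Libraries held 33236178 to 57195203 counts in genes. Libraries 1 and 2 of a group, and 3 and 4, differed in the 77 genes by a median of 0.03 to 0.09 on the log2 scale, against 0.06 to 0.45 for other pairs of the same group. In cortical controls libraries 3 and 4 differed by 0.09, more than the 4 other pairs of that group (0.06 to 0.07), whereas in each of the other groups both neighbouring pairs differed less than all other pairs. Neighbours were summed into samples A and B in every group, so that each has 2 samples. Tert itself had 15 to 230 counts per library. As CPM (counts scaled to library size, here with TMM factors) it had 0.546 and 1.32 in cortical controls and 1.26 and 2.05 in cortical tamoxifen samples. In the hippocampus it had 1.29 and 3.59 in controls and 0.931 and 2.04 in tamoxifen samples. Treated and control samples thus overlapped in both regions, and the highest Tert level was in a control. Neuronal markers were present beside abundant transcripts of other brain cells. Pan-neuronal transcripts (6 genes, Snap25 and Map2 among them) summed to 1638 to 3559 CPM over the 8 samples. Those of astrocytes (6 genes) summed to 5728 to 8291 CPM. The 6 oligodendrocyte transcripts, led by Mbp, summed to 21080 to 81480 CPM. Cortical tamoxifen sample B stood apart, with the lowest oligodendrocyte sum, the highest pan-neuronal sum and 20.35% of its gene counts from mitochondrial DNA, against 29.9 to 31.5% in the other cortical samples and 24.0 to 25.6% in the hippocampal ones. Its oligodendrocyte sum was mostly Mbp (14440 CPM) and Mobp (5274 CPM). Mag, at 88.06 CPM, and Mog, at 27.16 CPM, lay within the range of the other cortical samples there. So did the pan-neuronal gene Map2, at 1603 CPM. Fewer cells of a type and less RNA per cell cannot be told apart in these bulk samples.

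Per transcript length, genes of complex IV were the most abundant. Read as RPKM (reads scaled to exon length and library size, as deposited), the highest of all 77 genes was Cox8a, a small subunit of cytochrome c oxidase, with a mean of 834 and a range of 760 to 949 over the libraries. Cox6a1, the form of subunit 6a found in most tissues, followed at 522 RPKM. Cox5b, Cox4i1 and Cox6b1 stood at 225, 220.4 and 202 RPKM. The median over the 12 complex IV genes was 107 RPKM, against 38.3 for complex III, 31.8 for complex V, 17.2 for complex I and 16.8 for complex II. The lowest complex IV gene was Cox6a2, the form of subunit 6a best known from heart and skeletal muscle, at 3.49 RPKM, so that the highest and lowest genes of this complex differed 239-fold.

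In complex I, the distal membrane arm subunit Ndufb9 was highest at 254.5 RPKM and Ndufb2, of the same arm, lowest of all 77 genes at 1.09. Core subunits that carry flavin and iron-sulfur clusters were in between. Ndufv1, which binds NADH, had 16.6 RPKM and Ndufs1, with iron-sulfur clusters, 8.77. In complex II, the flavoprotein Sdha had 39.3 RPKM, the iron-sulfur subunit Sdhb 16.9 and the membrane anchors Sdhd and Sdhc 16.6 and 11.8. In complex III, levels ran from the small subunit Uqcr11 at 107 RPKM to the core protein Uqcrc2 at 16.8, with the electron carriers Cyc1 (cytochrome c1) at 38.3 and Uqcrfs1 (the Rieske protein) at 27.0. In complex V, the catalytic head subunits Atp5a1 (alpha) and Atp5b (beta) led at 82.8 and 72.2 RPKM, and the central stalk subunit Atp5c1 (gamma) had 31.8.

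**Figure D1:**
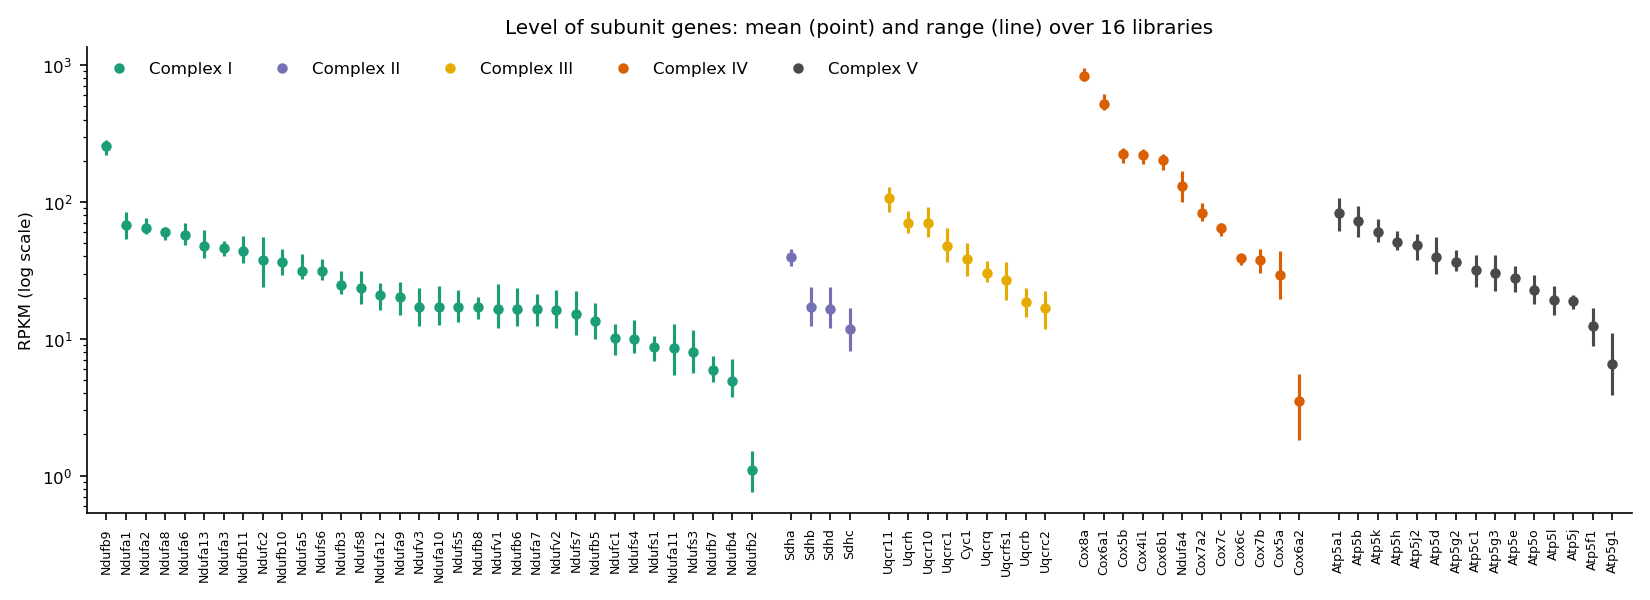
Level of 74 of the 75 subunit genes in RPKM on a log axis, grouped by complex and ordered within it; points are means and lines the range over 16 libraries. Complex IV spans from Cox8a at 834 down to Cox6a2 at 3.49, while complex II spans 3.34-fold.

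These levels carry a limit of alignment. Oxidative phosphorylation genes have many processed pseudogenes, and 27.5 to 35.4% of the counts of a library were reads that aligned to several places and were given to no gene. Of the 77 genes, 32 shared no 50-base stretch of exon with any other annotated gene, and 10 shared 30% or more, among them Atp5l at 84.8%, Atp5o at 47.6%, Uqcrb at 43.4%, Ndufs3 at 39.7% and Atp5g2 at 38.3%. Stretches were matched on either strand, and genes at the same locus count too. Ndufb6, at 31.6%, matched 0 pseudogenes and overlaps Smim27 on the other strand. Not every shared stretch therefore stands for reads that align to several places. The median level was 31.0 RPKM in the 32 and 18.8 RPKM in the 10. Levels of the latter may be underestimated, and the part of shared sequence in the order of levels was not tested. Annotated exon length also enters RPKM: the row of Ndufb2 has 5623 bases of exon and that of Atp5g1 4906.

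Tissue isoforms of complex IV were at or under the count minimum. The members nearest above it were Cox6a2, with 107 counts in its lowest library, and Atp5s with 203. The nearest below were Cox4i2, the alternative form of subunit 4, with 76 in its lowest library, and Cox6b2, the testis form of subunit 6b, with 43. Cox7a1, the heart and muscle form of subunit 7a, had 36 to 115 counts per library, Cox7b2 had 1 to 11, Atp5l2 5 to 21, and Cox8c had 0 counts in all 16.

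Cox8b, the heart and muscle form of subunit 8, differed widely between samples. It had 69 and 13 counts in cortical control A and B, 167 and 5 in cortical tamoxifen A and B, 1434 and 758 in hippocampal control A and B, and 16 and 780 in hippocampal tamoxifen A and B. The order of the samples followed neither treatment nor region alone. The summed level of 5 choroid plexus transcripts (Ttr, Kl, Clic6, Folr1 and Kcnj13) was 1075 and 6.99, 6063 and 4.71, 14930 and 7362, and 41.7 and 7601 TMM-scaled CPM in the same samples, with all 5 low in the samples where Cox8b was low and Kcnj13 at 0 in cortical control B. Their part in the Cox8b values was not tested. Cox6b2 had 234 and 128 counts in cortical controls, 315 and 127 in cortical tamoxifen samples, 1249 and 640 in hippocampal controls and 316 and 708 in hippocampal tamoxifen samples. As TMM-scaled CPM, Cox6b2 was also highest in hippocampal control A (10.4) and low in cortical control B (1.8) and cortical tamoxifen B (1.12). Cortical tamoxifen A, with a choroid plexus sum of 6063 CPM, had 4.56 CPM of Cox6b2. Hippocampal tamoxifen A, with a sum of 41.7 CPM, had 2.7 CPM. The part of choroid plexus cells in the Cox6b2 values was not tested.

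Summed by complex and scaled to the gene rows, complex IV gave the most counts in every sample. As CPM of the gene rows, it had 2903 and 2932 in cortical controls, 3278 and 2860 in cortical tamoxifen samples, 2978 and 2730 in hippocampal controls and 2965 and 2859 in hippocampal tamoxifen samples. The ranges of the 4 groups overlapped. Complex V had 1678 and 1684, 1662 and 2375, 2415 and 1924, and 1974 and 2006 CPM in the same order. Here all 4 hippocampal samples and cortical tamoxifen B lay above the other 3 cortical samples. Complex I gave 1733 and 1725, 1762 and 2189, 2195 and 1822, and 1969 and 1929 CPM, with the same split of the samples. Complex III gave 674 and 673, 671 and 880, 928 and 744, and 783 and 785, and complex II 372 and 363, 349 and 446, 478 and 404, and 426 and 421.

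On this scale counts from mitochondrial DNA enter the denominator, whereas a share among the subunits themselves does not depend on them. Complex IV made up 39.4 and 39.8% of all subunit counts in cortical controls and 42.5% in cortical tamoxifen A. The share was 32.7% in cortical tamoxifen B. It was 33.1 and 35.8% in hippocampal controls and 36.5 and 35.7% in hippocampal tamoxifen samples. The highest and the lowest share were thus both in cortical tamoxifen samples, and in controls the cortical share was above the hippocampal share in both samples. The complex V share ran the other way, with 22.8 and 22.8%, 21.5 and 27.1%, 26.9 and 25.2%, and 24.3 and 25.1% in the order of groups above. The ratio of complex III to complex V counts moved less, from 0.370 to 0.404 over the 8 samples, against 1.20 to 1.97 for complex IV to complex V.

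**Figure D2:**
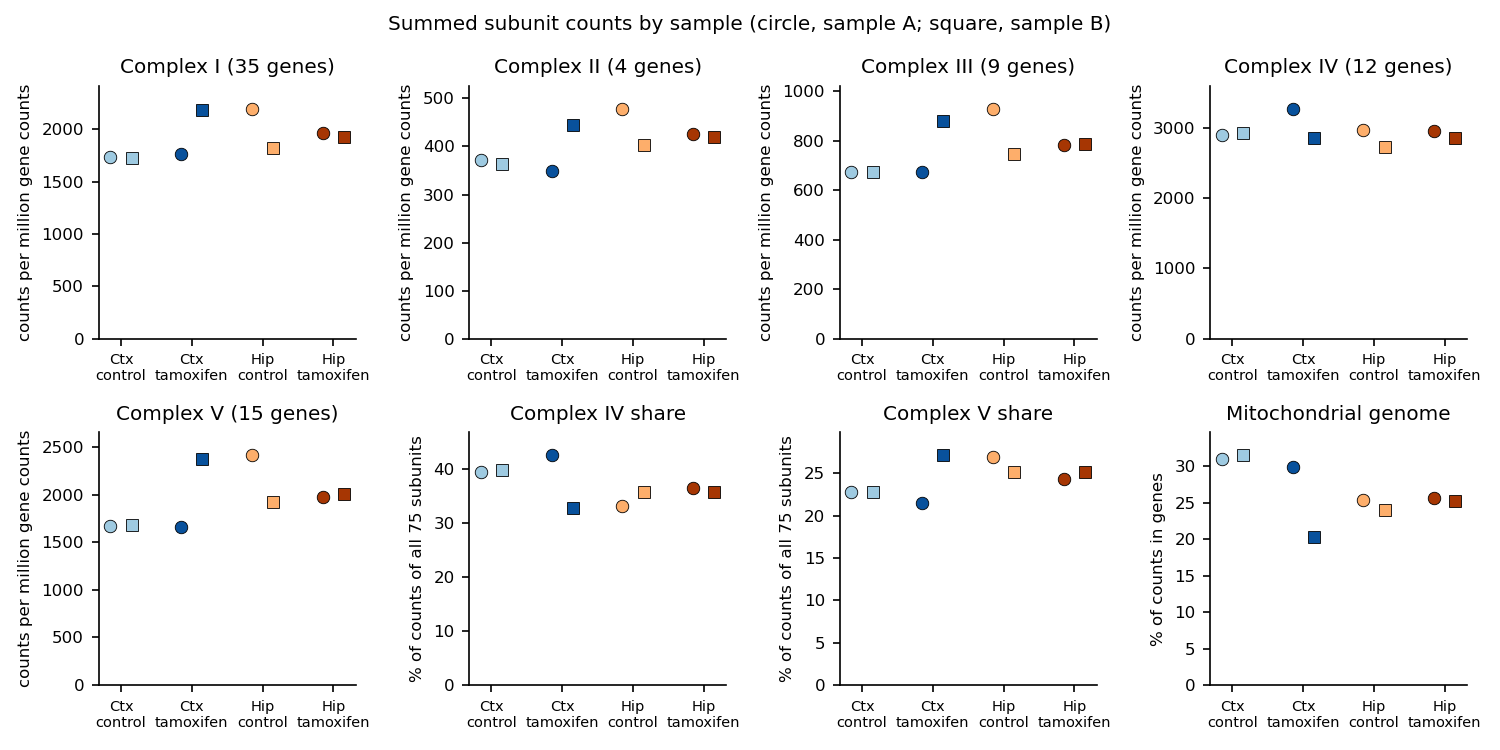
Summed counts of each complex as CPM of the gene rows, the shares of complexes IV and V among the counts of all 75 subunits, and the share of gene counts from mitochondrial DNA; circles are samples A and squares samples B, all axes start at 0. Cortical tamoxifen B has the lowest complex IV share, 32.7%, and cortical tamoxifen A the highest, 42.5%.

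The 13 subunits encoded by mitochondrial DNA outnumbered the nuclear subunits in counts 32.3 and 33.6 times in cortical controls, 29.9 and 18.5 times in cortical tamoxifen A and B, 20.9 and 23.7 times in hippocampal controls and 24.7 and 24.2 times in hippocampal tamoxifen samples. The 3 samples with the highest of these ratios were the 3 with the highest complex IV shares, and cortical tamoxifen B was lowest in both. The oligodendrocyte sum, mostly Mbp and Mobp, was lowest in cortical tamoxifen B, at 21080 CPM, and highest in cortical tamoxifen A, at 81480 CPM. The other samples did not follow that order. Cortical controls, at 61470 and 63020 CPM, had complex IV shares of 39.4 and 39.8%. Hippocampal control B and tamoxifen B, at 66950 and 60310 CPM, had shares of 35.8 and 35.7%. The part of mitochondrial DNA counts or of oligodendrocyte transcripts in the complex IV share was not tested.

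Scaled to the gene rows, cortical tamoxifen B had 2860 CPM of complex IV, against 2903 and 2932 in controls and 3278 in cortical tamoxifen A. Of complex V it had 2375 CPM, against 1678, 1684 and 1662. The share thus depended on all complexes, and single genes are given on another scale. TMM scaling, used for all CPM of single genes here, sets library sizes so that most genes do not differ between samples. Cox8a stood at 908 and 949 CPM in cortical controls, 1037 and 581 in cortical tamoxifen A and B, 617 and 653 in hippocampal controls and 657 and 662 in hippocampal tamoxifen samples. Cox6a1 had 689 and 705, 868 and 470, 515 and 512, and 556 and 557 CPM in that order. Both genes were high in 3 cortical samples and low in cortical tamoxifen B and the hippocampus, and the complex I gene Ndufb9 had the same order, from 215 CPM in cortical tamoxifen B to 364 in cortical tamoxifen A. Cox4i1, the main form of subunit 4, ran from 448 in hippocampal control B to 759 CPM in cortical tamoxifen A. Of the 77 genes, 38 (49.4%) were lower in cortical tamoxifen B than in all 3 other cortical samples and 29 (37.7%) were higher, against 33.7% and 38.7% of all genes tested, so that the sample stood apart in most genes and not in the members alone. The lower ones included 9 of 12 complex IV genes, and the log2 ratio of cortical tamoxifen B to the mean of those 3 was -0.73 for Cox8a and -0.68 for Cox6a1. Cox5a, of complex IV, and Ndufv1, the NADH-binding subunit, were higher, with log2 ratios of 0.33 and 0.39.

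The first question of the design was what tamoxifen changed in cortical neurons, and no oxidative phosphorylation gene passed the test. By edgeR's quasi-likelihood test, 0 of 77 members had an adjusted p under 0.05, as had 0% of all 18074 genes tested, and at an unadjusted p under 0.05 there were 0 members against 4.97% of all genes. DESeq2 and limma also called 0 members, beside 0.0443% and 0.0955% of all genes. The members' median log2 fold change was 0.02, against 0.04 for all genes, with 42 higher and 35 lower, and a typical standard error (SE) of 0.14. The extremes were -0.20 for Cox8a and 0.38 for Atp5g1. All 7 complex I core genes had positive values, from 0.04 to 0.19, 21 of 35 complex I genes did, and 9 of 12 complex IV genes had negative ones. These signs depended on the scaling. Scaled to the gene rows alone, 75 of 77 members were higher, with a median of 0.21 against 0.25 for all genes, and without mitochondrial counts in the total 59 were, with a median of 0.09 against 0.115 for all genes. With upper quartile scaling 31 were higher.

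The catalytic and structural representatives of the complexes differed by about their SE or less. Ndufv1 had a log2 fold change of 0.16 (SE 0.16) and Ndufs1 0.05 (SE 0.12). Sdha stood at -0.13 (SE 0.13) and Sdhb at 0.01 (SE 0.16). For complex III, Uqcrc1 had 0.07 (SE 0.16), Uqcrfs1 -0.04 (SE 0.13) and Cyc1 0.04 (SE 0.13). Cox4i1 had -0.05 (SE 0.22) and Cox5a 0.01 (SE 0.18), and for both the cortical tamoxifen samples lay far apart. For the ATP synthase head and stalk, Atp5a1 and Atp5b had 0.08 (SE 0.15 and 0.14) and Atp5c1 0.06 (SE 0.13). Samples of the groups did not overlap for 12 members on the higher side (15.6%, against 16.2% of all genes) and for 4 on the lower side (5.19%, against 14.9%).

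This count depended on a single sample. With cortical tamoxifen A left out, so that cortical tamoxifen B alone stood for the group and was assumed to vary like the other groups, 3 members passed, Cox6a1, Cox8a and Ndufb9, all lower, beside 10.7% of all genes. With cortical tamoxifen B left out, 0 members passed. The sign of the members' median changed too, to -0.04 without cortical tamoxifen A, against 0.05 without B. For complex IV the signs turned over, with 10 of 12 genes negative and a median of -0.35 without A, and 11 of 12 positive and a median of 0.19 without B.

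In hippocampal neurons, tamoxifen again changed no member past the threshold. By edgeR, 0 of 77 genes had an adjusted p under 0.05 (0% of all genes) and 0 an unadjusted p under 0.05 (3.61% of all genes), and DESeq2 and limma called 0, beside 0.0498% and 0.0537% of all genes. The members' median log2 fold change was -0.03, against -0.01 for all genes, with 32 higher and 45 lower, and 41 were higher with upper quartile scaling and 20 when scaled to the gene rows alone. All 9 complex III genes and 13 of 15 complex V genes had negative values, with medians of -0.05 and -0.07, while 9 of 12 complex IV genes had positive ones with a median of 0.06. These medians are smaller than the typical SE of a single gene, 0.14, which does not measure the spread of a median over genes. They rested on which control was used. Without hippocampal control A the members' median was 0.07, with 62 of 77 genes positive, 7 of 9 complex III genes among them, and without hippocampal control B it was -0.13, with 63 negative. Ndufb4, a distal arm subunit, was the highest at 0.17 (SE 0.14), and Atp5g1 the lowest at -0.49 (SE 0.21). The head subunits Atp5a1 and Atp5b had -0.07 (SE 0.15) and -0.12 (SE 0.14), and Ndufv1 and Sdha had 0.01 and 0.02.

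**Figure D3:**
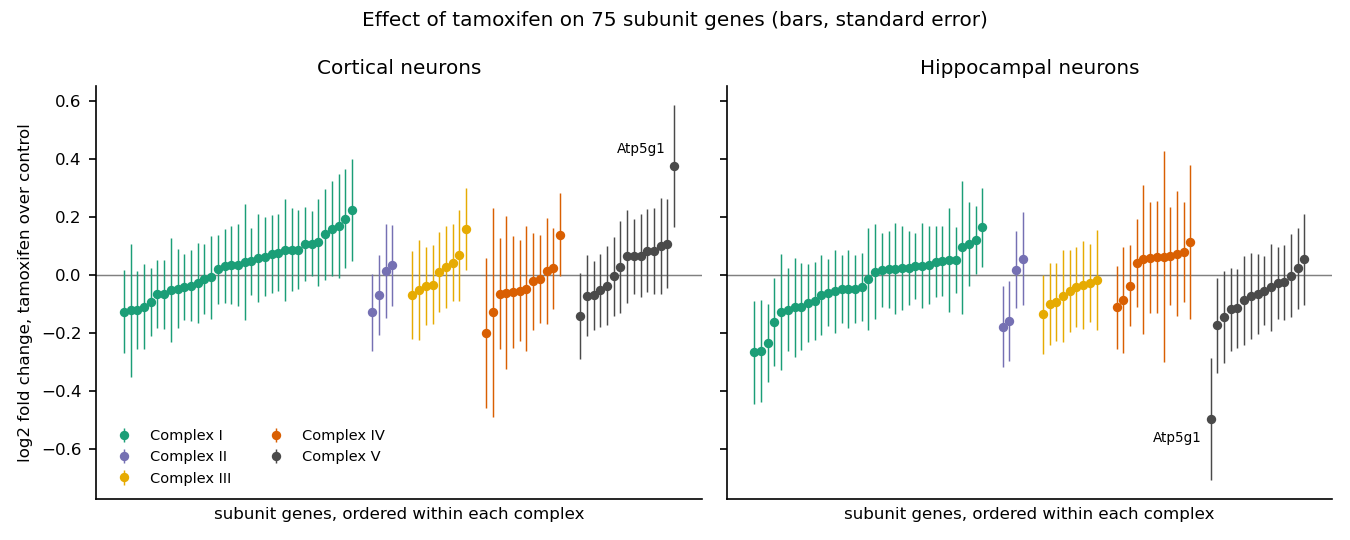
Log2 fold change of tamoxifen over control for the 75 subunit genes in cortical and hippocampal neurons, ordered within each complex; bars are standard errors. Atp5g1 is the highest in the cortex at 0.38 and the lowest in the hippocampus at -0.49, and most other genes lie within an error of 0.

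The effect of tamoxifen was compared between the regions as an interaction. By edgeR, 0 of 77 members had an adjusted p under 0.05 (0% of all genes), and 1 had an unadjusted p under 0.05, against 5.43% of all genes. DESeq2 and limma called 0 members, beside 0.0498% and 0.633% of all genes. The gene with an unadjusted p under 0.05 was Atp5g1, with a difference of effects of -0.87 (SE 0.30, unadjusted p = 0.0219, adjusted p = 0.889). Signs agreed between the regions for 25 of 77 genes, while 31 were higher in the cortex and lower in the hippocampus and 21 the reverse. The difference was negative for 45 members, and for 73 when scaled to the gene rows alone. The next in order were the complex I membrane arm genes Ndufa11 at -0.49 (SE 0.25) and Ndufb2 at -0.43 (SE 0.25), with adjusted p = 0.892 and 0.912 by edgeR.

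Atp5g1, Atp5g2 and Atp5g3 encode the same mature c subunit, the rotor ring of ATP synthase, from different genes with different import sequences. Atp5g1 had 40.1 and 40.6 CPM in cortical controls, 52.7 and 52.0 in cortical tamoxifen samples, 73.3 and 54.7 in hippocampal controls and 36.8 and 54.0 in hippocampal tamoxifen A and B. Cortical samples were higher with tamoxifen without overlap, and hippocampal samples lower, the last by a gap of 54.0 against 54.7. Atp5g3 varied less, from 89.2 CPM in hippocampal tamoxifen A to 124 in hippocampal control A, and Atp5g2 from 22.8 to 30.6 CPM. Atp5g1 made up 23.5 and 23.3% of the counts of the 3 genes in cortical controls and 28.6 and 26.4% in cortical tamoxifen samples. In hippocampal controls it made up 33.0 and 31.0%, and in hippocampal tamoxifen A and B 24.6 and 29.2%. Per length, Atp5g2 had 36.5, Atp5g3 30.2 and Atp5g1 6.49 RPKM. In the hippocampus the highest and lowest Atp5g1 levels, 73.3 and 36.8 CPM, were in the samples with the highest and lowest choroid plexus sums, 14930 and 41.7 CPM, and the other 2 samples, with sums of 7362 and 7601 CPM, had 54.7 and 54.0. In the cortex, tamoxifen A and B had sums of 6063 and 4.71 CPM and Atp5g1 levels of 52.7 and 52.0. The part of these cells in the Atp5g1 values was not tested. Atp5g1 shared 11.1% of its 50-base stretches with other genes.

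The 3 c subunit genes lie apart in the genome, and their start regions differ, as the windows from 250 bases before to 50 bases after the start site show (RefSeq, GRCm38.p6, all on the minus strand, printed 5′ to 3′). Capitals mark a match to the core motif of the factor NRF1 (CGCATGCG) in Atp5g2 and to the ERR receptor site (TGACCTTG) in Atp5g3, and Atp5g1 had no match. Atp5g1 lies on chromosome 11 from 96068852 to 96075670, Atp5g2 on chromosome 15 from 102663014 to 102667749 and Atp5g3 on chromosome 2 from 73908447 to 73911326 (mm10, as the files give them), so that the RefSeq start of Atp5g2 is upstream of its row in the files. The windows were chr11:96075582-96075881, chr15:102670998-102671297 and chr2:73911277-73911576.
Atp5g1: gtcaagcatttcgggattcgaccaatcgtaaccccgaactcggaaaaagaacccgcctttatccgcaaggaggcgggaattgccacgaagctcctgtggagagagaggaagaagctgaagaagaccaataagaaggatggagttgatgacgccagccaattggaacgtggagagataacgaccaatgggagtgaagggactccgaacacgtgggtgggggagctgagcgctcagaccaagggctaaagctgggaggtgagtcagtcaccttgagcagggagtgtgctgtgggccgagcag
Atp5g2: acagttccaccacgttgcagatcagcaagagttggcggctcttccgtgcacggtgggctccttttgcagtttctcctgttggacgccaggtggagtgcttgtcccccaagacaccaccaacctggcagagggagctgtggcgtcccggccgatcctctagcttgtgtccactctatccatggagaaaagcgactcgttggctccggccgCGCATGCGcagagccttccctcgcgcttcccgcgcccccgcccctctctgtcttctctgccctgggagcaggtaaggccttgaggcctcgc
Atp5g3: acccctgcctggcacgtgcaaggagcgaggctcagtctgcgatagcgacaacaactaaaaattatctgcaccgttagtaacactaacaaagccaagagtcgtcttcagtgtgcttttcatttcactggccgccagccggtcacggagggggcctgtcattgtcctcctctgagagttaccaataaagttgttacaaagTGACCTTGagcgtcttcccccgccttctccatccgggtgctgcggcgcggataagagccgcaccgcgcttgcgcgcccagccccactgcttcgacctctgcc

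The region comparison in controls asked where cortical and hippocampal samples differ without tamoxifen. By sign most members were lower in the hippocampus, all of complex IV among them, but none passed the threshold. The median log2 fold change of hippocampus over cortex was -0.10 for the 77 genes and 0.00 for all genes, with 59 members lower and 18 higher. All 12 complex IV genes were lower, with a median of -0.37, as were 27 of 35 complex I genes (median -0.10), 7 of 9 complex III genes (median -0.02), 9 of 15 complex V genes (median -0.03) and 2 of 4 complex II genes. By edgeR, 0 of 77 had an adjusted p under 0.05, against 6.19% of all genes, and 13 of 77 an unadjusted p under 0.05, against 27.6% of all genes. Samples did not overlap for 35 members on the lower side (45.5%, against 33.4% of all genes) and for 6 on the higher side (7.79%, against 34.6%). Outside complex IV these signs rested on hippocampal control B. Without that sample 38 of 77 genes were lower and the median was 0.00, with 15 of 35 complex I genes lower, but 11 of 12 complex IV genes, with a median of -0.32. Without hippocampal control A, 70 were lower, with a median of -0.24. Cell type markers differed between these controls too. Pan-neuronal transcripts summed to 2398 and 2697 CPM in the cortex against 1638 and 1692 in the hippocampus. Astrocyte transcripts had 7875 and 8291 against 6000 and 6588 CPM, and microglial ones 620 and 703 against 1057 and 1627. Oligodendrocyte sums overlapped, at 61470 and 63020 against 40160 and 66950 CPM. The part of cell content in the regional values was not tested.

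The 2 genes with the smallest p were accessory subunits of complex I, followed by Cox6a2 of complex IV and Atp5g1 of complex V. Ndufa5, of the arm that faces the matrix, had 62.2 and 61.6 CPM in cortical controls and 47.5 and 41.0 in hippocampal controls, without overlap, a log2 fold change of -0.48 (SE 0.12, adjusted p = 0.0567 by edgeR). Ndufb4, of the distal membrane arm, had 10.2 and 11.6 against 7.89 and 7.54 CPM, or -0.50 (SE 0.14, adjusted p = 0.0712), and shared 37.0% of its 50-base stretches with other genes. Ndufb3 and Ndufb8, of the same arm, stood at -0.33 (SE 0.11) and -0.40 (SE 0.14). Ndufs6, which binds zinc, had -0.33 (SE 0.12), and the ATP synthase membrane subunit Atp5k -0.36 (SE 0.14). In complex IV, Cox8a had -0.55 (SE 0.26), Cox6a1 -0.44 (SE 0.26), Cox4i1 -0.41 (SE 0.22) and Cox7a2 -0.36 (SE 0.15), while Ndufa4 had -0.02 (SE 0.14). The catalytic core of other complexes differed little: Uqcrfs1 had -0.02 (SE 0.13), Cyc1 0.03 (SE 0.13), Atp5b 0.01 (SE 0.14) and Atp5c1 0.00 (SE 0.13). Atp5g1 had the highest value, 0.67 (SE 0.21, adjusted p = 0.0987), followed by Ndufc2, a membrane arm subunit of complex I, at 0.37 (SE 0.15, adjusted p = 0.173). The choroid plexus sum, whose part in the Atp5g1 value was not tested, was 14930 and 7362 CPM in hippocampal controls against 1075 and 6.99 for the cortex.

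This count of 0 depended on the tool and on the cortical tamoxifen samples, which enter through the shared estimate of spread. DESeq2 called 4 members (Ndufa5, Ndufb4, Cox6a2 and Atp5g1) beside 17.7% of all genes, and limma with correlated libraries called 18 beside 20.4%. Leaving out cortical tamoxifen A, or B, gave the same 14 members beside 20.7% of all genes each time, all lower in the hippocampus: 8 of complex IV (Cox4i1, Cox5b, Cox6a1, Cox6a2, Cox6c, Cox7a2, Cox7c and Cox8a), 5 of complex I (Ndufa5, Ndufa8, Ndufb4, Ndufb8 and Ndufb9) and Atp5j of the ATP synthase stalk. The members' share, 18.2%, was near that of all genes.

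The direction was relative to other genes, not to the counts in genes. Scaled to the gene rows alone, the median of all genes was 0.39 on the log2 scale and 69 of 77 members were higher in hippocampal controls, with a median of 0.28. Without mitochondrial counts in the total, 55 were higher, with a median of 0.15 against 0.25 for all genes. Under all 5 scalings tried, all 12 complex IV genes and 27 of 35 complex I genes lay below the median of all genes. The members' median lay 0.10 to 0.11 below it. A scaling shifts all genes of a sample nearly alike, so these positions could hardly differ between scalings and are no separate evidence.

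In tamoxifen samples the same comparison gave a median of -0.20 for the members and -0.03 for all genes, with 72 of 77 lower in the hippocampus. All 12 complex IV, 15 complex V and 9 complex III genes were lower, with medians of -0.27, -0.17 and -0.11, as were 32 of 35 complex I genes (median -0.20). By edgeR, 0 of 77 had an adjusted p under 0.05, against 1.12% of all genes, and 2 an unadjusted p under 0.05, against 21.6% of all genes. DESeq2 called 1 member (1.3%), Cox6a2, beside 10.8% of all genes, and limma 0 beside 16.9%. Without cortical tamoxifen A, 58 members were lower but only 5 of 12 complex IV genes, with a median of 0.02 for that complex, and without B 11 of 12 were, with a median of -0.48. Samples did not overlap for 36 members on the lower side (46.8%, against 24.1% of all genes) and for 1 on the higher side (1.3%, against 22.4%). Scaled to the gene rows alone, 24 members were higher and the median was -0.04 against 0.12 for all genes, so that the direction again held relative to other genes.

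Across the treatments, with TMM scaling, 58 of 77 genes were lower in the hippocampus both in controls and with tamoxifen and 4 were higher in both. These 2 comparisons use separate samples but share the fit. With 59 lower in controls and 72 with tamoxifen, a large overlap had to arise, so it does not measure agreement. The overlap over all genes was not counted. Of all genes, 50.1% were higher in the hippocampus in controls and 47.5% with tamoxifen. Scaled to the gene rows alone, 69 members were higher in controls and 24 with tamoxifen. Ndufa5 was again among the lowest in tamoxifen samples, with 60.4 and 57.9 CPM in the cortex and 49.2 and 47.2 in the hippocampus (log2 fold change -0.30, SE 0.12, adjusted p = 0.205 by edgeR), and Ndufs6 had -0.27 (SE 0.12). Ndufc2 was the highest in tamoxifen samples at 0.20 (SE 0.15). Atp5g1, highest in controls, had -0.20 there, with hippocampal tamoxifen A low.

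**Figure D4:**
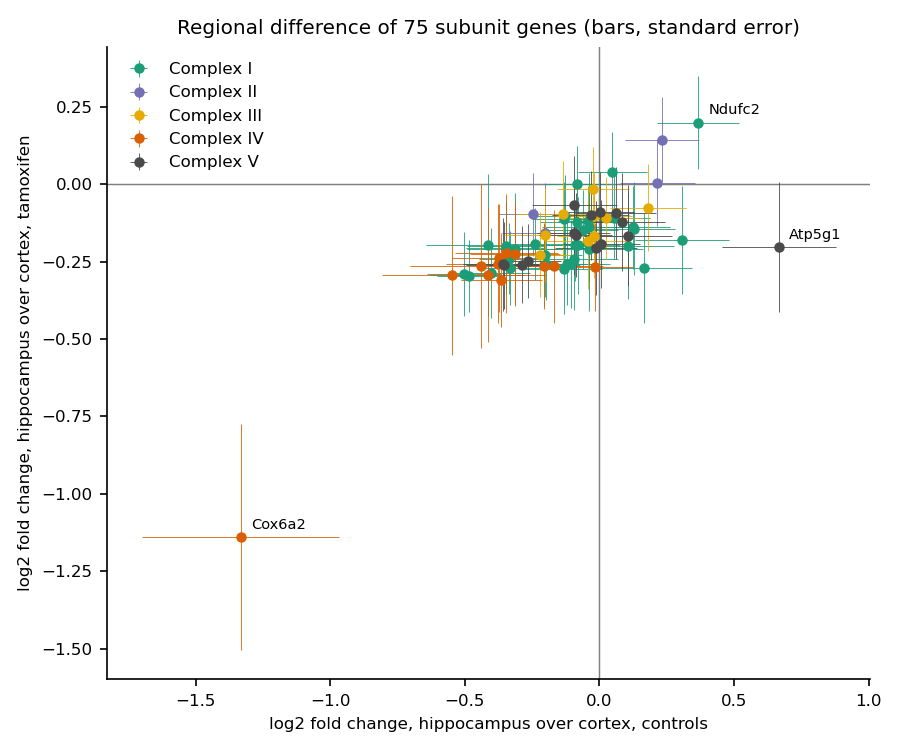
Log2 fold change of hippocampus over cortex for the 75 subunit genes, in controls (horizontal axis) and in tamoxifen samples (vertical axis), coloured by complex, with standard errors. Most genes lie below 0 on both axes, Cox6a2 lies farthest at -1.33 and -1.14, and Atp5g1 is at 0.67 in controls only.

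Cox6a2 had the largest regional difference of any member. It stood at 5.42 and 6.17 CPM in cortical controls, 7.16 and 3.47 in cortical tamoxifen A and B, 2.38 and 2.23 in hippocampal controls and 2.92 and 1.89 in hippocampal tamoxifen samples. All 4 cortical samples lay above all 4 hippocampal ones, nearest at 3.47 against 2.92. The log2 fold change of hippocampus over cortex was -1.33 (SE 0.37) in controls and -1.14 (SE 0.37) with tamoxifen, with adjusted p = 0.0733 and 0.142 by edgeR. Without cortical tamoxifen A the latter value was -0.52. Its ratio to Cox6a1, the common isoform, was 0.00787 and 0.00875 in cortical controls and 0.00461 and 0.00434 in hippocampal ones, so that Cox6a1 supplied nearly all subunit 6a transcripts. In the brain Cox6a2 is known from parvalbumin interneurons. The 6 inhibitory neuron transcripts summed to 117 to 215 CPM in cortical and 58.9 to 96.5 CPM in hippocampal samples, and Pvalb itself to 15.3 to 21.5 and 7.40 to 16.1 CPM. Cortical tamoxifen B had the highest inhibitory sum and the lowest cortical Cox6a2 level. Its Pvalb level, 20.1 CPM, lay within the cortical range. Its Sst level, 50.75 CPM, was above the 16.72 to 18.77 CPM of the other cortical samples, so its sum does not measure parvalbumin cells. Gad1 (64.99 CPM), Gad2 (41.59 CPM), Slc32a1 (33.88 CPM) and Vip (3.73 CPM) were also highest in that sample. The part of parvalbumin cells in the regional difference was not tested.

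**Figure D5:**
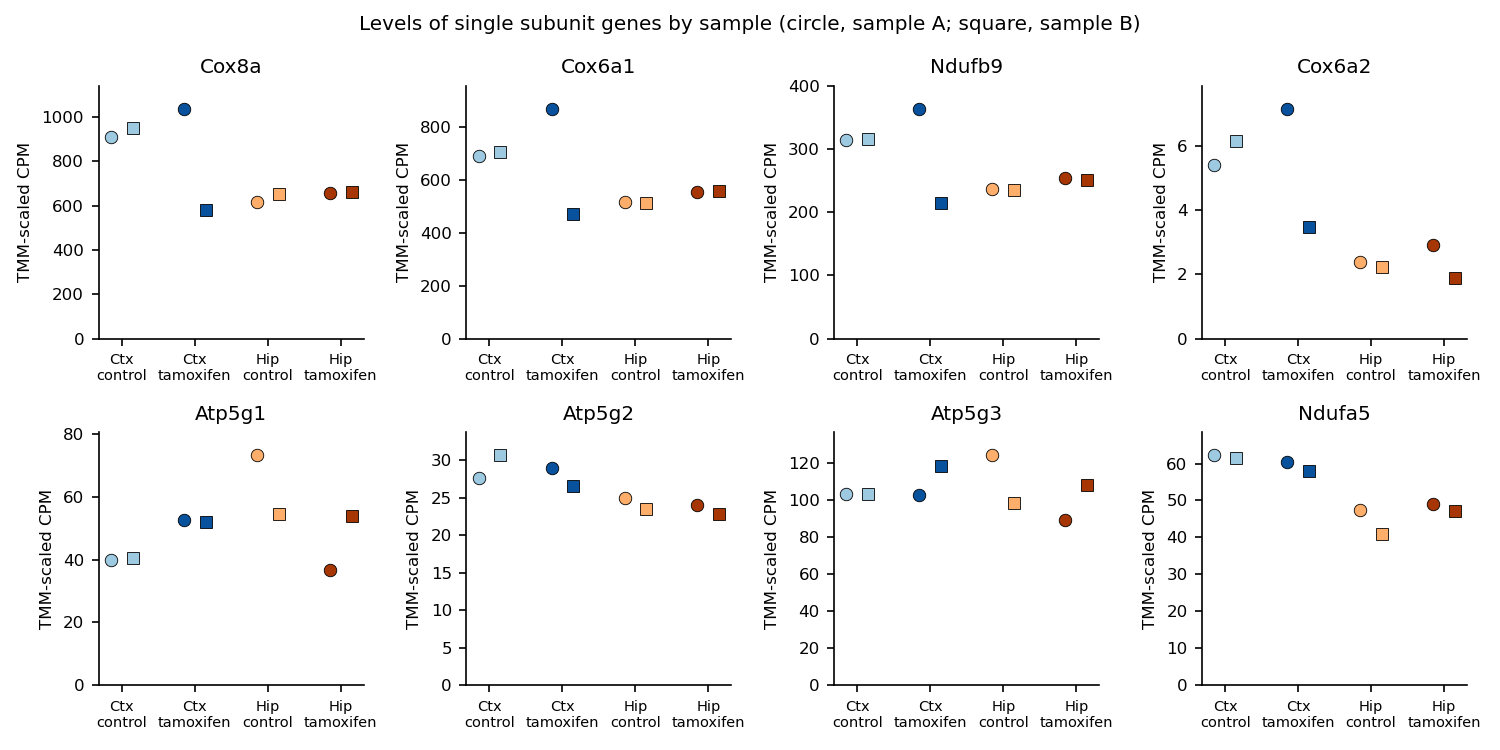
TMM-scaled CPM of 8 subunit genes in the 8 samples; circles are samples A and squares samples B, all axes start at 0. Cox8a, Cox6a1 and Ndufb9 are low in cortical tamoxifen B and the hippocampus, Cox6a2 is lower in all hippocampal than in all cortical samples, and Atp5g1 varies more than Atp5g2 and Atp5g3.

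The 2 most abundant members, Cox8a (chromosome 19, 7215158 to 7217616) and Cox6a1 (chromosome 5, 115345642 to 115348981), moved together over the samples. The part of their start regions in this was not tested. These regions are shown (RefSeq, GRCm38.p6, minus strand, chr19:7217567-7217866 and chr5:115348909-115349208), with capitals on matches to the ETS core (CCGGAAG on either strand) in both and to the NRF1 core in Cox6a1.
Cox8a: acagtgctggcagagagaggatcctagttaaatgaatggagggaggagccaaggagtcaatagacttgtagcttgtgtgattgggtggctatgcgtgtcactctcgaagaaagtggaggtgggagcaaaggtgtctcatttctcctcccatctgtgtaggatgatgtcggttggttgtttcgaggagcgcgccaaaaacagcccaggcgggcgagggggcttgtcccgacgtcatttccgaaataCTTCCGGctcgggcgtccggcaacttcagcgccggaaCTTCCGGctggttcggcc
Cox6a1: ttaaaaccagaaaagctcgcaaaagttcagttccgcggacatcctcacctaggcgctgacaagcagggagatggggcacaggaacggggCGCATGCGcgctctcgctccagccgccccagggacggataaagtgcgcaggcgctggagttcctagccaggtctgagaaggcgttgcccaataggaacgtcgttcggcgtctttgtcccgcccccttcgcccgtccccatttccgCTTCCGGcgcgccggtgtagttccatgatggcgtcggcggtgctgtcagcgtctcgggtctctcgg

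Windows were found in RefSeq for 64 of the 77 genes and for 27025 genes in all, and motifs were searched on both strands. The NRF1 core was in 14.1% of the members' windows and 2.07% of all windows. The ETS core was in 25.0 and 9.93%, the YY1 motif (AAGATGGC) in 17.2 and 3.19%, and the ERR site in 6.2 and 1.76%. The SP1 box (GGGCGG) was in 39.1 and 38.2%, and the TATA box (TATAAA) in 7.8 and 15.67%. The ETS core and the YY1 motif can overlap in their shared letters AAG, and a match describes letters, not binding.

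The members varied little over the 8 samples. The median standard deviation of log2 CPM was 0.15 for the 77 genes and 0.23 for the 10678 genes with the same count minimum, and 69 members lay under the latter. Those genes share the minimum but were not matched to the members by level. The part of abundance in the low spread was not tested. By complex the medians were 0.12 for complex III, 0.14 for complexes II and V, 0.15 for complex I and 0.22 for complex IV. Ndufa12 was among the least variable, with 0.08, and Cox6a2 varied most, with 0.73, followed by Cox8a and Atp5g1 with 0.32. The 13 subunits of mitochondrial DNA had a median of 0.46. Other nuclear genes of the pathway varied about as little as the members. The median was 0.17 for 39 assembly factors, 0.17 for 16 carriers and other electron entry points and 0.11 for 16 citric acid cycle enzymes.

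The other genes of the pathway were read from 4 lists, written with earlier results of these data known. In the cortical and hippocampal tamoxifen comparisons, 0 of 13 mitochondrial DNA subunits, 0 of 39 tested assembly factors, 0 of 16 carriers and other electron entry points and 0 of 16 citric acid cycle enzymes passed by edgeR. At an unadjusted p under 0.05, 1 mitochondrial DNA subunit (mt-Co2, log2 fold change -0.83, SE 0.25) and 1 citric acid cycle enzyme (Suclg2, -0.43, SE 0.15) did in the cortex, both negative and named after their values were seen, and 0 genes of the 4 lists did in the hippocampus. Mitochondrial DNA subunits had a median log2 fold change of -0.46 in the cortex, where 12 of 13 were lower, and 0.07 in the hippocampus. The cortical value came from 1 sample, since their summed TMM-scaled CPM was 274600 and 295200 in controls, 279500 in tamoxifen A and 142100 in tamoxifen B. Between regions, all 13 were lower in the hippocampus, with medians of -0.82 in controls and -0.34 with tamoxifen, and 0 passed. Assembly factors had medians of -0.11 and -0.16 and citric acid cycle enzymes -0.01 and -0.08 in the same comparisons, also with 0 passing. Carriers and other entry points had 0.14 in controls, with 10 of 16 higher in the hippocampus, and -0.05 with tamoxifen, where 6 of 16 were, again with 0 passing.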

How the data were processed

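Total RNA of 16 libraries was read from the deposited tables. The deposited counts are whole, unnormalized reads per gene, and the submitters' processing notes name STAR, HTSeq and the build mm10. The deposited RPKM beside it, per the file headers, was recomputed exactly from count, exon length and library total, and served only for levels. The sources used here give no versions or strand setting.

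Libraries 1 and 2, and 3 and 4, of each group were summed, giving 2 samples per group with 83527470 to 108293362 counts in genes. Nothing says that samples are separate animals, so p-values reflect only the spread of these samples, which may be technical. Genes kept by filterByExpr (18074) were scaled by TMM and fitted with group means in edgeR 4.0.16 (R 4.3.3, robust quasi-likelihood), adjusted by Benjamini-Hochberg over all genes at 0.05. SE is the log2 fold change over the square root of F. Alternatives used DESeq2 1.42.0, limma 3.58.1 (voom, correlated libraries), other scalings and left-out samples. The fit was tested on simulated data.

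Members and lists were chosen with earlier results of these data known. Genes named were representatives of each complex, the 5 of smallest p per direction and comparison, the highest and lowest RPKM per complex, tissue isoforms and genes that missed the minimum. Cox8a, Cox6a1 and Ndufb9, where their sample values are given, were picked after these were seen. Shared 50-base stretches came from GENCODE M21 and promoter windows from RefSeq. Single values of 1 member are not reported here; it is counted in the totals.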

Additional observations from a re-analysis of the deposited data

How the results depend on the processing

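Counts of members past an adjusted p of 0.05 were 0 in all 5 comparisons by edgeR on 8 samples. In controls, hippocampus against cortex, the count was 1 (1.3%, beside 6.28% of all genes) with upper quartile scaling, Ndufa5, lower. It was 1 with gene-row sums (beside 11.4%) and 1 without mitochondrial genes in these sums (beside 9.32%), Atp5g1, higher, both times. DESeq2 gave 4 (5.19%, beside 17.7%) and limma 18 (23.4%, beside 20.4%). The count was 33 (42.9%, beside 41.7%) with 16 separate libraries, whose p-values are too small if neighbours repeat 1 sample. With tamoxifen the same comparison gave 1 (1.3%, beside 10.8%) with DESeq2 and 22 (28.6%, beside 32.9%) with 16 libraries, and the difference of the tamoxifen effects gave 1 (1.3%, beside 5.18%) with 16 libraries. Leaving out each sample in turn gave 0 to 3 members for tamoxifen in the cortex, 0 to 14 for the regions in controls and 0 to 3 with tamoxifen, and the nonzero counts came only without cortical tamoxifen A or B. The highest, 3, 14 and 3, were 3.9%, 18.2% and 3.9% of the members, beside 10.7%, 20.7% and 21.7% of all genes. Every other alternative listed here gave 0. Genes called in all, 1118 between regions in controls and 202 with tamoxifen, ranged from 0 to 6982 and from 0 to 5510. Samples share a letter only as a name, and a fit with the letter as a replicate block gave 0 members in each comparison and 72 genes in all for the regions in controls. Correlations of same-letter deviations between groups ran from -0.50 to 0.35, so no pairing was assumed. With gene-row sums, 51 of 77 members changed sign between regions in controls, among them 7 of the 13 with an unadjusted p under 0.05, to 0.027 (Atp5j), 0.034 (Atp5k), 0.024 (Cox7a2), 0.04 (Ndufa2), 0.038 (Ndufa8), 0.053 (Ndufb3) and 0.055 (Ndufs6), since that scaling shifts all genes by a median of 0.39. With 2 samples per group, differences of the size of most members' values could not be resolved. The largest errors between regions in controls were those of Cox6a2, with 107 counts in its lowest library, and of the abundant genes Cox6a1 and Cox8a.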
